A study of Mus musculus with 12 samples.

Results

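Nlgn1, Cdh11 and Igfbp5 are 3 baited mouse promoters with few contacts at PCGF2-bound sites, out of 24 named baits whose long-range contacts were mapped by CaptureC in embryonic stem cells. They were chosen by the number of a bait's contacts that overlapped a site where RING1B and PCGF2 were both bound, and these counts were 0 for Nlgn1, 0 for Cdh11 and 1 for Igfbp5. These counts describe the choice and are not a result. Just outside the choice, Hcrtr1 and Islr2 had 1 such contact each, tied with Igfbp5, 3 named baits had 2 and 16 had more. The 3 baits held 31 of the 842 contacts in the table, 7 for Nlgn1, 8 for Cdh11 and 16 for Igfbp5. The named baits together held 414 contacts.

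Polycomb repressive complex 1 (PRC1) is a chromatin-modifying complex built around RING1A or RING1B, which attach ubiquitin to histone H2A. The canonical form of the complex contains PCGF2 and chromobox proteins, and in embryonic stem cells it sits at the promoters of many silent developmental genes, where it can hold distant target sites together in the nucleus. Nlgn1 encodes neuroligin 1, an adhesion protein of the postsynaptic membrane that binds neurexins. Cdh11 encodes cadherin 11, a type II cadherin of mesenchymal cells, and Igfbp5 encodes a secreted protein that binds insulin-like growth factors. CaptureC digests crosslinked chromatin, ligates neighbouring fragments and pulls down ligation products of chosen promoters with biotinylated oligonucleotides, so a read count at a distant fragment measures how often it was ligated to the bait.

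The 12 samples formed 4 groups of 3. PRC1CPM cells carried catalytic point mutations in both Ring1a alleles throughout, and 800 nM OHT for 72 h switched Ring1b to a catalytically dead form through a tamoxifen-activated Cre at Rosa26; the untreated PRC1CPM cells therefore had mutant RING1A but active RING1B. PRC1DEG cells lacked Ring1a, carried a degron tag on both Ring1b alleles and expressed the auxin receptor TIR1 from Rosa26, and 0.5 mM auxin for 6 h removed RING1B. Control cells expressed TIR1 without a degron tag, kept both RING1 proteins and received the same auxin treatment. Per the labels all PRC1CPM samples came from 1 clone. Expression was not measured in these libraries, so the cell type could not be checked against marker genes.

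The authors merged the 3 replicates of a group before scoring contacts, so every value below is 1 number per group, with no spread between replicates and no test. Intervals are 95% Wilson intervals for changes and exact Poisson intervals for summed counts. Both cover counting error only, since the 3 replicates were pooled. They treat each recovered weighted read as 1 independent count, although reads were not counted by molecular identifiers. Read numbers are weighted reads recovered from the steps between normalized counts, and the contacts in the table summed to between 66102 and 102920 weighted reads per group. In the auxin libraries the step between normalized counts had 2 sizes, which the labels do not explain. Baits were sorted into 2 bait sets by this step, so the sets are inferred. All 3 baits lay in the set of 25 baits that also held Fli1, Isl1 and Zfp503. The groups of the 2 experiments differed in line, treatment time and experiment, which cannot be told apart, so changes were computed only within each experiment. Within the auxin experiment, PRC1DEG and Control cells were also different lines, and there was no untreated PRC1DEG group. Loss of Ring1a, the degron tag, the line and removal of RING1B therefore cannot be told apart there. A rise or fall in PRC1DEG cells below means relative to Control cells.

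The captured ends identify what was baited, and 1 oligonucleotide per promoter, the one with more CpG dinucleotides, is shown with the DpnII recognition site in capitals. All coordinates are GRCm38 (mm10), and sequences are given on the plus strand.
Nlgn1, chr3:26331437-26331556: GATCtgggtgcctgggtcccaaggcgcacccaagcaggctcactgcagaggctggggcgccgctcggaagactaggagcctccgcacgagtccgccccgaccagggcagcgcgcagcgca
Cdh11, chr8:102784771-102784890: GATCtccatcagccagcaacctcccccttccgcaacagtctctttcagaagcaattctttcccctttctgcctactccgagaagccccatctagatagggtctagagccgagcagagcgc
Igfbp5, chr1:72874650-72874769: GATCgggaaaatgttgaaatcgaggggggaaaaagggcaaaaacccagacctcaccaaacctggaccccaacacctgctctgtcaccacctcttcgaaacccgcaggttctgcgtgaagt

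The Nlgn1 bait (chr3:26331437-26332361) overlapped an exon of the gene, while the annotated transcript start fell just beyond the fragment end. The Cdh11 bait (chr8:102784771-102786074) and the Igfbp5 bait (chr1:72874650-72875860) each contained the start. The baits had 5.51, 5.67 and 2.31 CpG per 100 bases for Nlgn1, Cdh11 and Igfbp5. Each bait fragment itself overlapped a site bound by RING1B and PCGF2, so what was scarce was the PCGF2 site at the other end of a contact, not at the promoter. All 3 genes are transcribed from the minus strand, and distances are given as upstream (higher coordinate) or downstream of the bait.

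The contacts of the 3 baits lay far from their promoters, and 6 of 31 overlapped a protein-coding gene. The nearest was 381 kb from its bait, whereas 129 of the 254 contacts that the other 21 named baits made outside PCGF2 sites were closer than that. In the same bait set, the contacts of Fli1, Isl1 and Zfp503 outside PCGF2 sites lay at a median of 1070 kb, compared with 809 kb here, and 5 of 38 were closer than 381 kb. The median distance was 605 kb for Nlgn1, 1250 kb for Cdh11 and 789 kb for Igfbp5. Upstream contacts numbered 25 and downstream contacts 6, and 15 contacts overlapped no annotated gene. Of the rest, 8 overlapped 6030407O03Rik, a long non-coding RNA gene between Igfbp5 and Tns1, and 6 overlapped Nlgn1, Spata16 or Tns1. Only 1 of the 31 lay within 5 kb of a protein-coding gene start, and no contact lay within 5 kb of the start of a cadherin, insulin-like growth factor, neuroligin, neurexin or named bait gene. The contact fragments were poor in CpG, with a median of 0.636 per 100 bases at the summit, against 1.32 at the sites outside PCGF2 binding of the other named baits, 0.737 at those of Fli1, Isl1 and Zfp503 alone, and 3.06 at PCGF2 sites. The median GC content was 42.5%, 45.8%, 44.3% and 52.8% in the same order. The PCGF2 sites were part of the rule, so the last of these values are given for scale only.

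Summed over its contacts, Igfbp5 gave the highest signal of the 3 baits, with 1133 weighted reads in untreated and 920 in OHT-treated PRC1CPM cells, 807 in Control and 1177 in PRC1DEG cells. Cdh11 gave 438, 310, 178 and 177 reads in the same groups. Nlgn1 gave 74, 58, 29 and 42 reads. The Igfbp5 sum was lowest in Control cells in reads but not in normalized counts, where it was 1.26 (1.19 to 1.34) in untreated and 1.12 (1.05 to 1.20) in OHT-treated PRC1CPM cells, 1.38 (1.29 to 1.48) in Control and 1.84 (1.74 to 1.95) in PRC1DEG cells. Nlgn1 counts were so low that single contacts held between 1 and 15 reads, and all its changes were within counting error.

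**Figure D1:**
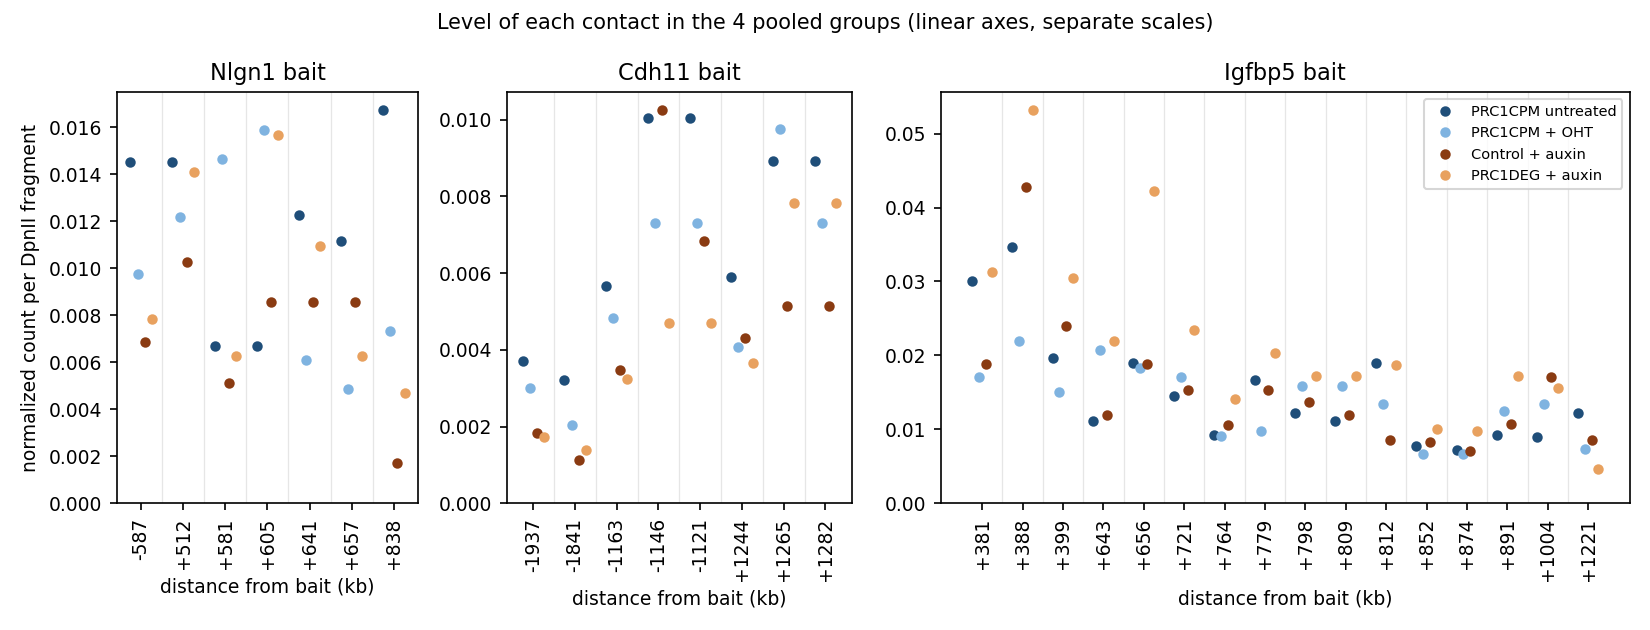
Normalized count per DpnII fragment (vertical axis, linear, a separate scale for each bait) at each contact of the Nlgn1, Cdh11 and Igfbp5 baits, ordered by distance from the bait in kb (plus is upstream of the gene). Each point is 1 pooled group of 3 merged replicates and has no error bar. In the Igfbp5 panel PRC1DEG points sat above Control points at 14 of 16 contacts.

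After OHT the 3 baits shifted down by about as much as the rest of the table, and no contact rose beyond its counting error. The median log2 change of the 31 contacts was −0.27, the same as over all 822 contacts with a value. At the other named baits, contacts outside PCGF2 sites had a median of −0.16, those of Fli1, Isl1 and Zfp503 in the same bait set −0.40, and PCGF2 sites −0.95. By bait the median was −0.56 for Nlgn1, −0.36 for Cdh11 and −0.08 for Igfbp5, and the last became 0.12 when changes were centred on contacts outside PCGF2 sites, whose median was −0.19. In all, 22 of 31 contacts (71.0%) were lower and 9 higher. The share lower was 74.1% over all contacts and 66.9% at those of the other 21 named baits outside PCGF2 sites. Summed over contacts, Cdh11 kept 77.4% of its untreated signal (log2 −0.37, interval −0.58 to −0.16), Igfbp5 kept 88.8% (−0.17, −0.30 to −0.05) and Nlgn1 kept 85.7% (−0.22, −0.72 to 0.27). The Nlgn1 interval included 0 and the other 2 did not.

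At least a 2-fold fall after OHT was seen at 2 contacts of the 31, both of Nlgn1, against 11.8% of all contacts. At least a 2-fold rise was also seen at 2 Nlgn1 contacts, against 0.73% of all contacts, and the interval of each of these 4 included 0. An interval wholly below 0 was found at 2 contacts, 1 of Cdh11 and 1 of Igfbp5, against 15.1% of all contacts, and above 0 at none, as in the whole table (0.0%). The whole-table shares include PCGF2 sites, which the choice of baits left out. At the contacts of the other 21 named baits outside PCGF2 sites, 12 of 251 were at least 2-fold lower, 2 at least 2-fold higher and 19 had an interval below 0.

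In PRC1DEG cells Igfbp5 contacts were mostly higher than in Control cells and Cdh11 contacts were not. Nlgn1 contacts were mostly higher too, but on few reads. Its summed interval included 0 and overlapped those of both other baits. The median log2 change was 0.42 at Igfbp5, 0.31 at Nlgn1 and −0.08 at Cdh11. Over the 30 contacts with a value the median was 0.34, against 0.01 over all 790 contacts, 0.07 at the other sites of the other named baits, −0.16 at those of Fli1, Isl1 and Zfp503, and −1.78 at PCGF2 sites. In all, 22 of 30 contacts (73.3%) were higher in PRC1DEG cells. The share higher was 51.6% over all contacts. It was 56.0% at the contacts of the other named baits outside PCGF2 sites and 34.4% at those of Fli1, Isl1 and Zfp503. Of the 22, Igfbp5 accounted for 14, Nlgn1 for 5 and Cdh11 for 3. Summed signal in PRC1DEG cells was 133% of Control for Igfbp5 (log2 0.42, interval 0.29 to 0.54), 132% for Nlgn1 (0.41, −0.27 to 1.08) and 90.9% for Cdh11 (−0.14, −0.44 to 0.16). In the same bait set the summed change outside PCGF2 sites was −0.57 (−0.79 to −0.36) at Fli1 and −0.20 (−0.34 to −0.05) at Zfp503. These intervals did not overlap that of Igfbp5, while that of Isl1 did, at −0.02 (−0.78 to 0.74). The median over all 489 contacts of this bait set was 0.06. In the other bait set, the sums outside PCGF2 sites were 0.28 (0.19 to 0.38) at Hcrtr1 and 0.21 (0.05 to 0.36) at Ctdspl. Both intervals overlapped that of Igfbp5, and these were the baits nearest to it in its pair of medians.

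A 2-fold rise in PRC1DEG cells was reached at 2 contacts, both of Igfbp5, against 2.91% of all contacts, and a 2-fold fall at 1 contact of Cdh11, against 13.4%. An interval wholly above 0 was found at 4 contacts, all of Igfbp5, against 3.42% of all contacts, and wholly below 0 at none, against 13.9%. At the contacts of the other 21 named baits outside PCGF2 sites, 10 of 241 were at least 2-fold higher and 10 at least 2-fold lower, 15 had an interval above 0 and 18 below. The whole-table shares again include PCGF2 sites. The 4 contacts with an interval above 0 were among the 16 of Igfbp5. The spread between cultures is not known for any of them.

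**Figure D2:**
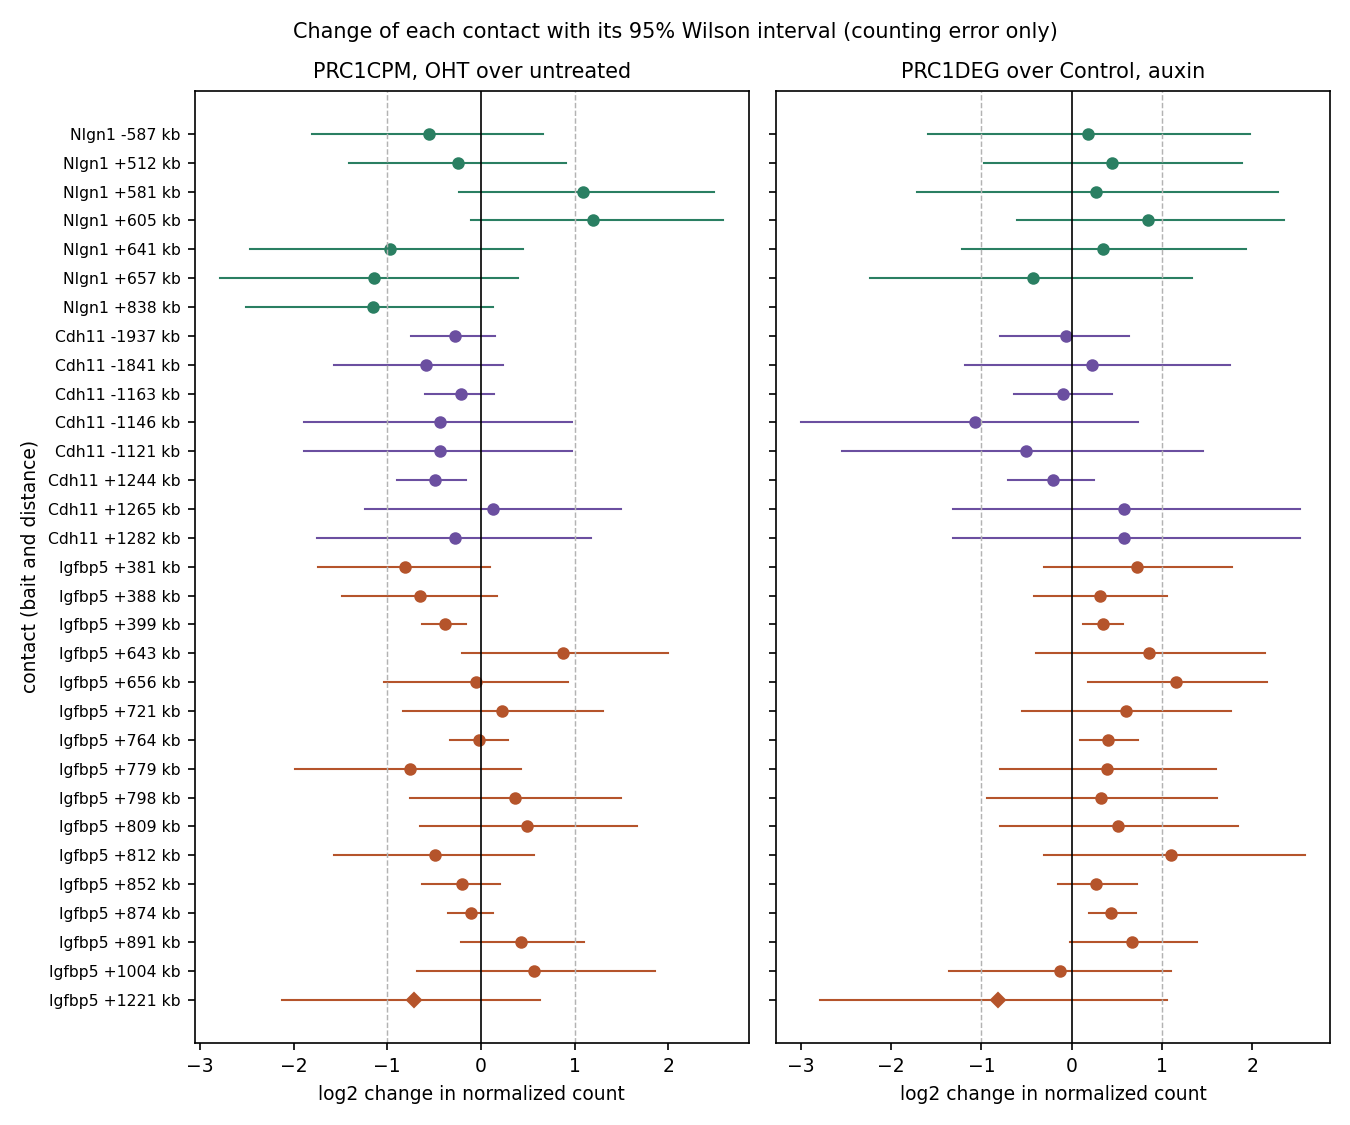
Log2 change of each contact with its 95% Wilson interval, in PRC1CPM cells (OHT over untreated, left) and in PRC1DEG over Control cells (right). Colours separate the 3 baits, the diamond is the contact at a PCGF2 site, and dashed lines mark 2-fold. Intervals of the 4 Igfbp5 contacts at 399, 656, 764 and 874 kb lie above 0 on the right, and Nlgn1 at 838 kb has no value there because both libraries held 3 reads or fewer.

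The Igfbp5 contacts fell into 3 stretches, grouped by their spacing. The nearest stretch, 3 contacts from 381 to 399 kb upstream, held 411 reads in untreated and 278 in OHT-treated PRC1CPM cells, 316 in Control and 444 in PRC1DEG cells. It fell after OHT (log2 −0.44, interval −0.66 to −0.22) and was higher in PRC1DEG cells (0.36, 0.15 to 0.57). The middle stretch, 11 contacts from 643 to 891 kb and largely over 6030407O03Rik, held 703, 625, 476 and 720 reads. Its change after OHT was −0.04 (−0.20 to 0.11) and in PRC1DEG cells 0.47 (0.30 to 0.64). All 3 contacts of the nearest stretch were called (CHiCAGO score of at least 5) in untreated PRC1CPM cells. Most contacts of the middle stretch were called in OHT-treated and not in untreated PRC1CPM cells. The OHT changes of the stretches, and the difference between them, are therefore not independent of these calls. The 2 remaining contacts, at 1004 and 1221 kb, held 19, 17, 15 and 13 reads, too few to place either change away from 0.

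The largest single contacts of Igfbp5 supplied most reads of the nearest and middle stretches, so their changes are not separate from those above. The contact at 399 kb (chr1:73268955-73278879, 20 fragments, overlapping the non-coding gene Gm29185) had the most reads of all 31, with 353 in untreated and 246 in OHT-treated PRC1CPM cells, 280 in Control and 390 in PRC1DEG cells. Its log2 change was −0.38 (−0.63 to −0.16) after OHT and 0.34 (0.13 to 0.57) in PRC1DEG cells, so it was low in OHT-treated cells and high in PRC1DEG cells. The contact at 874 kb (46 fragments) held 299, 254, 192 and 287 reads, with changes of −0.10 (−0.35 to 0.13) and 0.43 (0.19 to 0.71). The contact at 764 kb (21 fragments, in an intron of 6030407O03Rik) held 174, 157, 130 and 189 reads, with changes of −0.02 (−0.33 to 0.29) and 0.40 (0.09 to 0.73). Both were close to level after OHT and higher in PRC1DEG cells.

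The contact at 656 kb, in the non-coding gene Gm29186, held 17, 15, 11 and 27 reads and had the largest rise of any of the 31 in PRC1DEG cells, 1.15 (0.17 to 2.16), after a change of −0.05 (−1.03 to 0.93) with OHT. The contact at 643 kb had the largest Igfbp5 rise after OHT, 0.87 (−0.21 to 1.99), from 10 to 17 reads, and that at 381 kb the largest fall, −0.81 (−1.74 to 0.10), from 27 to 14 reads. Both intervals included 0. The middle 300 bases of the contact at 656 kb (chr1:73531198-73531497), shown for its rise, held 4 CpG, in capitals.
Igfbp5 at 656 kb: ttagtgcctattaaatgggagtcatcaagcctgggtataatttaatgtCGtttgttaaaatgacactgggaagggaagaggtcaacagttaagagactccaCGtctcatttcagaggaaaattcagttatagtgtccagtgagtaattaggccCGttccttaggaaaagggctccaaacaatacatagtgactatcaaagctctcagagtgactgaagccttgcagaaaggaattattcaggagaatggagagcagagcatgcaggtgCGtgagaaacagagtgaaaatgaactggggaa

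The single contact with a PCGF2 site was that of Igfbp5 at 1221 kb (chr1:74095664-74096139), in an intron of Tns1, which encodes tensin 1, a protein that links integrins to actin; it was 4.3 kb from the start of a Tns1 transcript. It held 11 reads in untreated and 6 in OHT-treated PRC1CPM cells, 5 in Control and 3 in PRC1DEG cells. Untreated PRC1CPM cells were the highest and PRC1DEG cells the lowest. The log2 changes were −0.72 (−2.13 to 0.64) after OHT and −0.82 (−2.79 to 1.05) in PRC1DEG cells, both lower and both within counting error. It was 1 of only 2 Igfbp5 contacts below 0 in PRC1DEG cells, with that at 1004 kb at −0.13 (−1.36 to 1.10). Its summit fragment had 1.05 CpG per 100 bases, below the median of 3.06 at PCGF2 sites. The middle 300 bases (chr1:74095751-74096050) held 3 CpG.
Igfbp5 at 1221 kb: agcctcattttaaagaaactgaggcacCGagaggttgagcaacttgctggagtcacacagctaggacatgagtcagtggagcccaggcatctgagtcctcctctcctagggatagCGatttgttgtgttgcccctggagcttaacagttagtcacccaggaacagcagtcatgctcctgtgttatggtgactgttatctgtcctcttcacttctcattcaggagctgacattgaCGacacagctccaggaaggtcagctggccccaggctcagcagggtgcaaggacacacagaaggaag

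Cdh11 was lower after OHT on both sides of the gene, and its intervals in PRC1DEG cells included 0. Of its 8 contacts, 7 were called in untreated PRC1CPM cells alone, so they entered the table through the group in which they were high, and the fall after OHT is not independent of that choice. The 5 downstream contacts, between 1121 and 1937 kb away all intergenic and on the side of Cdh8, another type II cadherin gene, held 269, 199, 99 and 99 reads in untreated PRC1CPM, OHT-treated PRC1CPM, Control and PRC1DEG cells. Their summed change was −0.31 (−0.57 to −0.04) after OHT and −0.13 (−0.53 to 0.27) in PRC1DEG cells. The 3 upstream contacts, between 1244 and 1282 kb, held 169, 111, 79 and 78 reads, with changes of −0.48 (−0.82 to −0.13) and −0.15 (−0.60 to 0.30). They lay 66.8, 50.7 and 33.4 kb from the start of Cdh5, which encodes the cadherin of endothelial junctions.

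The Cdh11 contact at 1244 kb upstream (chr8:104023119-104034852, 29 fragments) held 153, 97, 73 and 68 reads. Its change after OHT was −0.49 (−0.90 to −0.16), the only Cdh11 interval below 0, and in PRC1DEG cells −0.21 (−0.71 to 0.24). The contact at 1163 kb downstream held 132, 103, 53 and 54 reads, with changes of −0.22 (−0.60 to 0.14) and −0.09 (−0.65 to 0.44). That at 1937 kb downstream held 93, 69, 30 and 31 reads, with changes of −0.27 (−0.75 to 0.15) and −0.07 (−0.80 to 0.64). These 3 broad contacts of Cdh11 were each lower after OHT, but only the interval at 1244 kb excluded 0. All were called in untreated PRC1CPM cells alone, so the fall is not independent of that choice. They differed little between Control and PRC1DEG cells. The largest fall after OHT was at 1841 kb downstream, from 26 to 15 reads (−0.58, −1.57 to 0.24), and the fall past 2-fold in PRC1DEG cells was at 1146 kb downstream, from 6 to 3 reads (−1.07, −3.00 to 0.74).

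Nlgn1 had 1 contact inside its own gene body and 6 upstream. The contact 587 kb downstream, in an Nlgn1 intron, held 13, 8, 4 and 5 reads in untreated PRC1CPM, OHT-treated PRC1CPM, Control and PRC1DEG cells. Of the upstream contacts, 4 lay in Spata16, a gene of sperm formation. That at 512 kb held 13, 10, 6 and 9 reads and that at 641 kb held 11, 5, 5 and 7 reads. The contact at 838 kb, 12.7 kb from the start of Nceh1, a cholesterol ester hydrolase gene, held 15, 6, 1 and 3 reads. It had the largest fall of the bait after OHT, −1.16 (−2.51 to 0.13), and no fold is given for PRC1DEG over Control because both were at or below 3 reads. The contact at 657 kb fell from 10 to 4 reads (−1.14, −2.78 to 0.40).

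The neighbouring contacts at 581 and 605 kb went the other way after OHT. That at 581 kb, over an exon of Spata16, held 6 reads in untreated and 12 in OHT-treated cells (1.09, −0.23 to 2.49), and 3 in Control and 4 in PRC1DEG cells. That at 605 kb held 6 and 13 reads (1.20, −0.10 to 2.59), and 5 in Control and 10 in PRC1DEG cells (0.85, −0.61 to 2.35). It was the highest Nlgn1 contact in OHT-treated PRC1CPM and in PRC1DEG cells, and each interval included 0. Its summit fragment was the most CpG-rich of the Nlgn1 contacts, with 2.56 CpG per 100 bases, and 15 CpG fell in its middle 300 bases (chr3:26936888-26937187).
Nlgn1 at 605 kb: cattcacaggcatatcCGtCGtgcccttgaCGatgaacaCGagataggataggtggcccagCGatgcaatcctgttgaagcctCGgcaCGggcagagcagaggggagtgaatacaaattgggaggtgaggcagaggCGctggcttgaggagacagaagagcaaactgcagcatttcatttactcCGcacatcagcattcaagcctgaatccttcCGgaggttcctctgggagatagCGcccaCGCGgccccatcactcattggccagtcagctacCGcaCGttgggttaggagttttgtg

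Contacts of the 3 baits were called, with a CHiCAGO score of at least 5 at the summit fragment, almost only in PRC1CPM libraries. CHiCAGO scores a contact against the read count that its distance and the bait's capture would give. Of the 31 contacts, 20 were called in untreated and 12 in OHT-treated PRC1CPM cells, 1 in Control and 2 in PRC1DEG cells. Over the table, PCGF2 sites included, the shares called were 58.8%, 33.6%, 20.1% and 17.9% in the same order. Of the 254 contacts of the other 21 named baits outside PCGF2 sites, 157, 97, 27 and 28 were called. For the 38 of these made by Fli1, Isl1 and Zfp503, the numbers were 28, 9, 7 and 3. Fewer calls in the auxin libraries were therefore not particular to the 3 baits. None of the 31 contacts was called in 3 or 4 groups, 4 were called in 2 groups and 27 in 1. The number of groups per contact was not counted over the whole table, so this split cannot be read as particular to the 3 baits. Igfbp5 was called at 8 contacts before and 9 after OHT, Cdh11 at 7 and 1, and Nlgn1 at 5 and 2. The median score was 3.51 in untreated and 2.74 in OHT-treated PRC1CPM cells, 1.22 in Control and 1.79 in PRC1DEG cells.

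**Figure D3:**
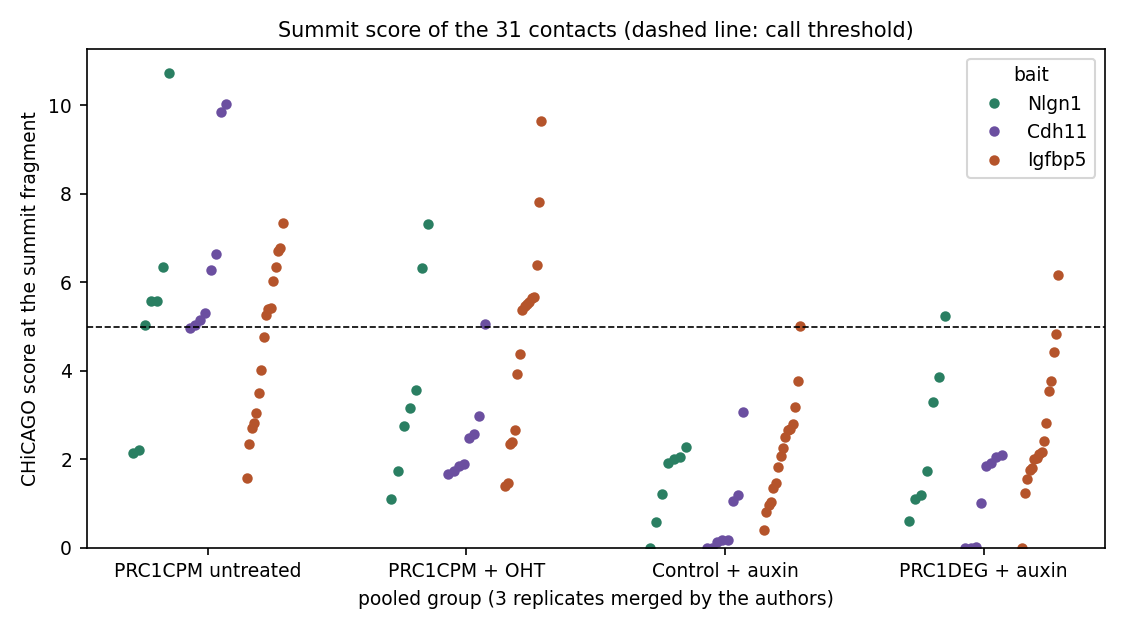
CHiCAGO score at the summit fragment (vertical axis) of the 31 contacts in the 4 pooled groups, sorted within each bait, with the call threshold of 5 dashed. Of the 31 points, 20 reach the line before and 12 after OHT in PRC1CPM cells, with 1 in Control and 2 in PRC1DEG cells.

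All 31 contacts reached a summit score of 5 in at least 1 group, as did all but 8 in the table, so a call and the change measured in the same libraries are not independent. All 20 contacts called in untreated cells were lower after OHT, with a median of −0.49. Among the 12 called after OHT, 9 were higher and the median was 0.39. The part of this choice in the OHT changes was not tested. Only 3 contacts were called in an auxin library. Among the 28 called in neither, the median change in PRC1DEG cells was 0.34, with 19 of 27 higher. Leaving out so few contacts could hardly move the median, so this cannot show what part the choice had. That part was not tested for the PRC1DEG changes either. The median change in PRC1DEG cells was 0.27 for contacts called in untreated and 0.54 for those called in OHT-treated PRC1CPM cells.

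Placed among the named baits by their contacts outside PCGF2 sites, Igfbp5 had the highest median change in PRC1DEG cells of the 23 baits with a value, at 0.43, with Nkx2-2 next at 0.37 and Hcrtr1 at 0.33. Nlgn1, at 0.31, ranked 5 and Cdh11, at −0.08, ranked 14. After OHT, Igfbp5 ranked 5, Cdh11 18 and Nlgn1 21. Over all their contacts, the bait nearest to Igfbp5 in its pair of medians was Hcrtr1 (0.06 after OHT and 0.33 in PRC1DEG cells), that nearest to Cdh11 was Hoxb5 (−0.26 and −0.09), and that nearest to Nlgn1 was Ctdspl (−0.28 and 0.28). The distances between these pairs were 0.16, 0.10 and 0.27 log2 units over the 2 contrasts, with 1 pooled value per group. Fli1, Isl1 and Zfp503, the other named baits of the same bait set, had lower medians than Igfbp5 in both contrasts.

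**Figure D4:**
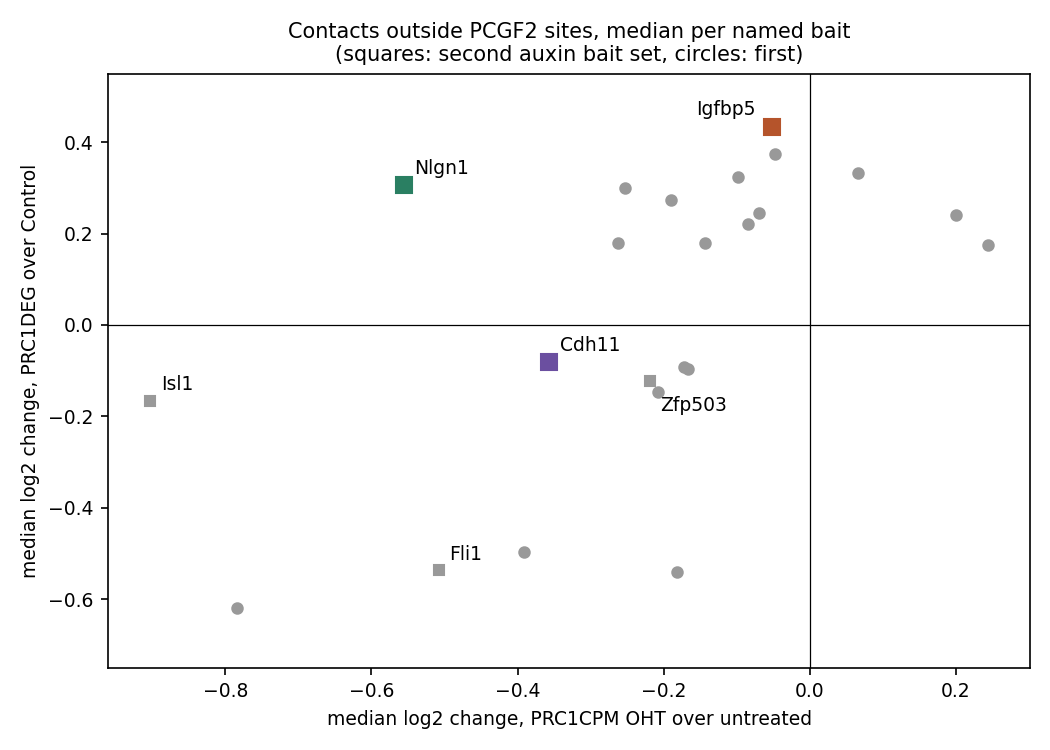
Median log2 change of contacts outside PCGF2 sites for each of 23 named baits, after OHT (horizontal axis) and in PRC1DEG over Control cells (vertical axis). Squares are baits of the second auxin bait set and circles of the first, with the 3 described baits in colour. Igfbp5 is the highest point at 0.43, Nlgn1 lies at −0.56 and 0.31, and Cdh11 lies at −0.36 and −0.08.

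Read across both experiments, 30 contacts had a value in each, since Nlgn1 at 838 kb had none in PRC1DEG cells. Of these, 14 were lower after OHT and higher in PRC1DEG cells, and 7 were lower in both. A further 8 were higher in both, and 1 was higher after OHT and lower in PRC1DEG cells. The largest class joins the commoner direction of each contrast, 71.0% lower after OHT and 73.3% higher in PRC1DEG cells. The classes were not counted over the whole table or at the other named baits, so this split cannot be read as particular to the 3 baits.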

How the data were processed

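CaptureC libraries of 12 samples in 4 groups were analysed from 1 deposited table of 842 contacts. The authors aligned reads to mm10 with HiCUP and Bowtie2, merged the 3 replicates of each group, and scored contacts with CHiCAGO. Fragments scoring 5 or more in some sample were joined when fewer than 10 DpnII fragments apart. The deposited signal is the weighted read count scaled to the reads on, and the number of, captured promoters, and the deposited score is the CHiCAGO score. Weighted reads were recovered from the step between values (100% whole within 0.1). Log2 changes used the mean signal per fragment plus 0.00035 and were left out where both libraries held 3 reads or fewer. No test was possible without replicate columns. Wilson intervals (95%) compared the reads of 2 libraries. Annotation was GENCODE on GRCm38, and all 24 bait fragments and oligonucleotides matched it. Scripts were tested on simulated data (Python 3.11.15, pandas 2.3.3, SciPy 1.17.1). Contacts named singly were those at PCGF2 sites, the 3 per bait with most reads over untreated PRC1CPM and Control cells together, and the largest rise and fall per bait and contrast with at least 10 reads in 1 library; others were named after their values were seen. The members and lists were chosen with earlier results of these data known.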

Additional observations from a re-analysis of the deposited data

Results flagged for a closer look

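The Igfbp5 contact at 399 kb moved in opposite directions in the 2 experiments, with a log2 change of −0.38 in OHT-treated PRC1CPM cells and of 0.34 in PRC1DEG cells, neither interval including 0. Summed over its 16 contacts, Igfbp5 gave −0.17 in the former and 0.42 in the latter. The median shift of all contacts outside PCGF2 sites after OHT was −0.19. Opposite directions were not particular to Igfbp5. Outside PCGF2 sites, Dlx2 gave −0.18 (−0.27 to −0.09) and 0.16 (0.07 to 0.24), and Eomes −0.08 (−0.16 to −0.01) and 0.17 (0.08 to 0.27). Both lay in the other bait set. Fli1 and Zfp503, in the same bait set as Igfbp5, were lower in both experiments. With 1 pooled value per group, the difference between the experiments was not tested.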

How the results depend on the processing

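No paired analysis was possible because the deposited columns pool the 3 replicates, and leaving out a replicate could not be run for the same reason. All 244 recomputed changes of single contacts stayed inside their intervals, and centring changed the sign of 3 of them after OHT. The alternatives reused the same reads and most of these intervals were wide, so staying inside them says little about stability. The median of −0.27 after OHT became −0.08 when centred on contacts outside PCGF2 sites, whose median shift was −0.19, and −0.56 at Nlgn1 alone and −0.08 at Igfbp5 alone. The median of 0.34 in PRC1DEG cells reversed to −0.08 at Cdh11 alone. Contacts of 1 fragment alone, an alternative chosen after seeing the data, gave −0.36 and 0.39. The Igfbp5 median after OHT turned to 0.12 with centring, while in PRC1DEG cells it was 0.32. With a pseudocount 10 times larger, 0 contacts passed 2-fold in either direction after OHT, and PRC1DEG cells had 0 falls and 1 rise. Centring gave 0 falls and 3 rises past 2-fold after OHT. The 2-fold fall in PRC1DEG cells went to 0 with sums over fragments and to 0 with at least 10 reads. At 1.5-fold there were 7 falls and 3 rises after OHT, and PRC1DEG cells had 2 falls and 7 rises. With a score threshold of 10, called contacts numbered 2 in untreated and 0 in OHT-treated PRC1CPM cells, and 0 in each auxin group. A threshold of 3 gave 4 in Control and 8 in PRC1DEG cells. With mean scores, 13 were called in untreated PRC1CPM cells. Median summit scores were 5.30, 3.16, 1.46 and 2.02 in untreated, OHT-treated, Control and PRC1DEG cells, and mean scores over contacts 4.14, 3.44 and 1.48 in the first 3. The causes of these differences were not tested. Depth was lowest at Nlgn1, where contacts held 1 to 15 reads and every interval included 0.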
